A study of Mus musculus with 5 samples.

Results

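The antiviral genes Rsad2, Eif2ak2, Ifi204 and Usp18 were followed in mouse macrophages through 21 h of exposure to LPS (lipopolysaccharide), the endotoxin of the outer membrane of Gram-negative bacteria. They were taken by name, with earlier results of these data known. Every probe annotated with exactly 1 of these symbols was used, 6 of the 19828 probes of a two-colour cDNA array, giving 4 of 8637 measured genes. All 6 probes had a value on all 5 arrays, and Rsad2 and Eif2ak2 had 2 probes each. The macrophages were grown from bone marrow of C3H/ARC mice and differentiated in culture with human CSF-1, on which the lineage depends for growth. Macrophages without LPS gave the 0 h sample, and the others received LPS of S. minnesota at 10 µg per ml for 0.5, 2, 7 or 21 h. As a common reference, the other channel carried RNA from whole C57BL6/J embryos at day 17.5 on every array. Each time was measured on 1 array and the labels give no number of mice, so no p-value is given and no value has a biological replicate.

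LPS is sensed by Toll-like receptor 4, which through the adaptor TRIF starts production of type I interferon, and the secreted interferon then acts on the macrophages through its receptor, the STAT factors and IRF9. The genes switched on by this route include effectors that act on viruses, sensors of foreign nucleic acid and inhibitors that limit the response. Rsad2 encodes viperin, a radical enzyme of the endoplasmic reticulum and lipid droplets that makes a chain-terminating nucleotide. Eif2ak2 encodes PKR, a kinase that binds double-stranded RNA and blocks translation by phosphorylating the initiation factor eIF2. Ifi204 encodes a DNA-binding protein of the HIN-200 family. Usp18 encodes the protease that removes the ubiquitin-like modifier ISG15 from proteins and also holds back signalling at the interferon receptor.

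Genes of this kind are classically controlled through the interferon-stimulated response element, searched here as GAAANNGAAA, a pair of half-sites, on both strands (TTTCNNTTTC on the other) from 250 bases before to 50 bases after the start. RefSeq promoter windows (GRCm38.p6) matched 2 of the 4 genes, Rsad2 and Eif2ak2, and each held 1 match. Of all 32851 windows, 3.44% held the motif. Counted by gene, it was 257 of 6963 measured genes with a window (3.69%), and 8 of 21 other interferon-response genes measured here with a window. The bases before the Rsad2 start (chr12:26456453-26456702, minus strand) and the 30 bases around the match in the Eif2ak2 window (chr17:78882535-78882564, minus strand) are shown because they hold the matches. Both genes were more than 10-fold above 0 h at 2 h under median centring. Ifi204 and Usp18 had no window and could not be searched, so the matches cannot be set against the size of the changes. Capitals mark the match.
Rsad2: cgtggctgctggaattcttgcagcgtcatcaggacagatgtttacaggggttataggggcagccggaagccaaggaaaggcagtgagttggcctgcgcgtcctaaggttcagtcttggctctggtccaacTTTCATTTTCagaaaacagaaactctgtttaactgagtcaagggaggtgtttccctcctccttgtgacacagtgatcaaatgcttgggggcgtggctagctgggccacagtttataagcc
Eif2ak2: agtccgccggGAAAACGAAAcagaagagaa
In Rsad2 the match begins 120 bases before the start, and in Eif2ak2 it begins at base 19 of the transcript. The gamma-activated sequence, a STAT motif searched as TTCNNNGAA (the same on both strands), had 1 match in the Eif2ak2 window, 178 bases before the start, and none in that of Rsad2. It occurs in 8.30% of all windows. Counted by gene, it occurs in 589 of 6963 measured genes with a window (8.46%), and in 7 of the 21 other interferon-response genes. A match is a description of the letters and does not show that a factor binds there.

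Levels are given as log2 ratios of macrophage to embryo RNA with the median of each array subtracted, and a change is the level at a time minus that at 0 h. The deposited values were read as log10, since neither the base nor the direction of the ratio is stated. If they were log2, every log2 change would be 3.32 times too large. The direction is likely from marker genes: 7 macrophage markers had median levels of 1.78, 1.80, 2.09, 2.86 and 2.20 in order of time, and 9 embryo markers -1.05, -1.24, -1.88, -1.88 and -1.47. Lyz2, encoding the macrophage lysozyme, lay between 3.80 and 4.16. By contrast, the macrophage marker Cd68 lay between -0.59 and -0.02, and the macrophage marker Tyrobp between -0.79 and 0.01. Csf1r and Adgre1 were not among the measured genes. The 0.5 h and 2 h arrays held an excess of high values in 94 of 207 runs of 96 consecutive probe numbers, called affected runs below, defined by 10% or more of their probes reaching a 2-fold excess over 0 h on either of these arrays. This definition by itself lowers the shares of early higher genes given below for probes outside affected runs, which are therefore no independent background. Of the 6 probes, 3 lie in affected runs. Genes at least 2-fold higher and lower numbered 514 and 87 at 0.5 h, and 1071 and 95 at 2 h. Under quantile normalization these counts were 240 and 298, and 430 and 395. At 7 h they were 352 and 273, against 220 and 510 without centring and 417 and 516 under quantile normalization. At 21 h they were 263 and 125, against 190 and 222, and 324 and 391. Without centring, the median change of all genes moved to -0.22 at 7 h and -0.12 at 21 h. Over probes of one gene, the pooled SD of a change was 0.67, 0.97, 0.51 and 0.47 in order of time. Over probes outside affected runs alone it was 0.42, 0.55, 0.50 and 0.43. This SD is technical, and the value over all probes serves below as the only measure of error unless stated. In bulk RNA, fewer expressing cells and less RNA per cell cannot be told apart.

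Rsad2, the gene of viperin, had the largest late changes of the 4 genes and was measured by 2 probes that carry the same clone accession. The level of probe 12355 was 1.87 at 0 h, 2.64 at 0.5 h, 6.19 at 2 h, 5.77 at 7 h and 5.54 at 21 h. For probe 14280 the levels were 2.65, 3.33, 5.16, 6.84 and 5.90. Both probes were above the embryo already at 0 h, 3.66-fold and 6.27-fold, and both stood far higher on the arrays of 2, 7 and 21 h. They put the highest level at different times, probe 12355 at 2 h and probe 14280 at 7 h. At 2 h their changes were 4.32 and 2.51, which gives a mean of 3.42 with an SD over probes of 1.28, above the pooled SD of 0.97. At 7 h they were 3.90 and 4.19 (mean 4.04, SD 0.20) and at 21 h 3.67 and 3.25 (mean 3.46, SD 0.30), so the changes of the probes lay closer together at 7 h and 21 h than at 2 h, although their levels differed at 7 h as at 2 h. At 0.5 h the changes of 0.76 and 0.68 (mean 0.72, SD 0.06) were close to the pooled SD of 0.67. The mean change at 7 h was 7.88 times the pooled SD, and 7.35 times at 21 h. Both probes lie in affected runs, and the sign at 0.5 h and 2 h depended on the scaling, with -1.65 and -0.70 under quantile normalization. At 7 h and 21 h quantile normalization gave 3.91 and 4.29.

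Ifi204, the HIN-200 gene, followed a similar course on a single probe in an unaffected run. Its level was 2.72 at 0 h, 3.59 at 0.5 h, 4.88 at 2 h, 6.16 at 7 h and 5.32 at 21 h, so each LPS array lay above 0 h and the 7 h array was highest. Relative to 0 h it was 1.82-fold, 4.46-fold, 10.9-fold and 6.07-fold higher, which on the log2 scale is 0.87, 2.16, 3.44 and 2.60. These changes are 1.29, 2.23, 6.70 and 5.53 times the pooled SD over all probes, which at each time is larger than that outside affected runs. Quantile normalization again turned the sign at the early times, to -2.06 at 0.5 h and -1.95 at 2 h, and gave 2.84 at 7 h and 2.50 at 21 h. Over the probes outside affected runs alone, quantile normalization gave 0.17, 0.31, 3.16 and 3.16. The family consists of closely related genes, so a cDNA probe may also bind transcripts of relatives, which was not tested.

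Usp18, which removes ISG15 from proteins, had its largest changes at 7 h and 21 h. The level of its single probe, in an unaffected run, was 1.48, 1.93, 2.21, 3.89 and 3.39 in order of time. At 0.5 h and 2 h it lay 1.37-fold and 1.66-fold above 0 h, log2 changes of 0.46 and 0.73. These are less than the pooled SD over all probes but more than the 0.42 and 0.55 outside affected runs. Under quantile normalization the changes were -0.84 and -1.07. At 7 h it was 5.35-fold higher (log2 change 2.42, 4.71 times the pooled SD) and at 21 h 3.77-fold (1.91, 4.07 times). Between 2 h and 7 h, which does not involve the 0 h array, the log2 difference was 1.69, and 2.01% of all genes were at least 2-fold higher in that step.

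Eif2ak2, the gene of PKR, had its largest changes early and smaller ones late. Probe 11451, in an unaffected run, had levels of 0.69, 3.71, 4.35, 1.56 and 1.68, and probe 12329, in an affected run, 0.76, 2.90, 3.82, 1.81 and 1.52. On both probes the 0.5 h and 2 h arrays stood apart from the other 3. The changes at 0.5 h were 3.02 and 2.14 (mean 2.58, SD over probes 0.62), and at 2 h 3.66 and 3.06 (mean 3.36, SD 0.42). These means are 3.83 and 3.48 times the pooled SD. At 7 h the gene lay 1.94-fold and at 21 h 1.84-fold above 0 h, each 1.87 times the pooled SD. These log2 changes of 0.96 and 0.88 lie above the 95th percentile of all genes, 0.90 at 7 h and 0.79 at 21 h. From 2 h to 7 h it was 5.28-fold lower (log2 difference -2.40). In that step 13.4% of all genes were at least 2-fold lower, and 4.99% of genes outside affected runs. Under quantile normalization the changes kept their sign and were 1.58, 1.39, 1.12 and 1.19, so the late changes were then past 2-fold. Against the 0.5 h array, the gene lay at -1.62 at 7 h and -1.70 at 21 h.

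**Figure D1:**
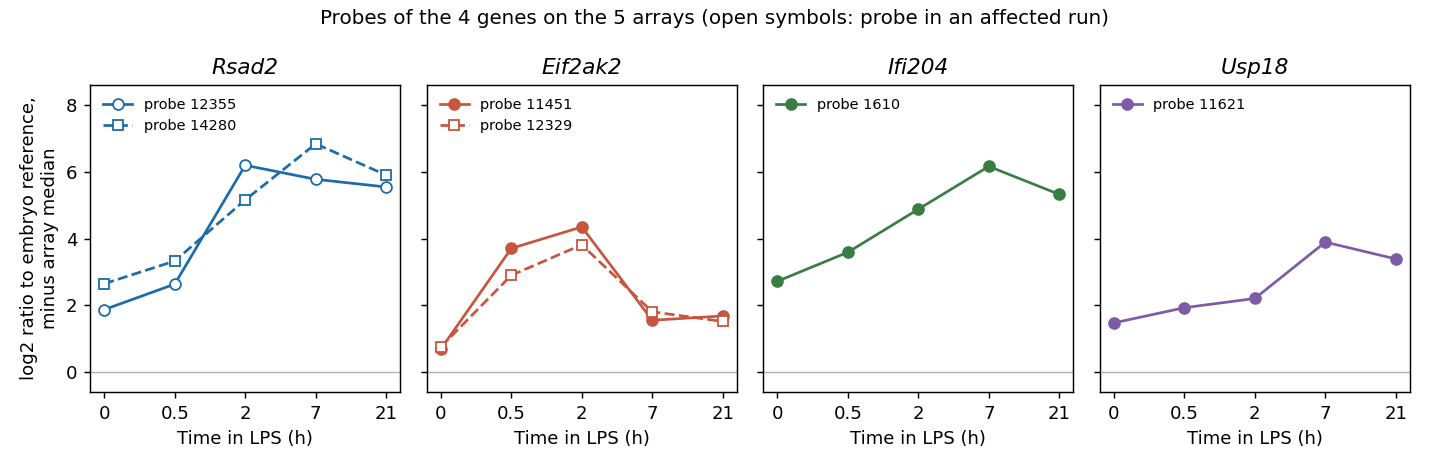
Level of each of the 6 probes (log2 ratio to the embryo reference minus the array median, vertical axis) on the 5 arrays in order of time (horizontal axis, h, not to scale); each point is 1 array and open symbols mark probes in affected runs. The probes of Rsad2, Ifi204 and Usp18 are higher at 7 h than at 0 h, while both probes of Eif2ak2 are highest at 2 h and back below 2 at 7 h; under quantile normalization Rsad2, Ifi204 and Usp18 lie below 0 h at 0.5 h and 2 h.

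Set against all genes, 1 of the 4 genes was at least 2-fold above 0 h at 0.5 h (Eif2ak2), where 5.95% of all genes were. At 2 h it was 3 of 4 (Rsad2, Eif2ak2 and Ifi204) against 12.4% of all genes, or 2 of the 3 genes with a probe outside affected runs against 4.22% of genes there. At 7 h and 21 h it was 3 of 4 (Rsad2, Ifi204 and Usp18), against 4.08% and 3.05%, with Eif2ak2 just under the limit. With each run centred on its own median it was 4 of 4 at 7 h, against 3.94% of all genes. Under quantile normalization it was 4 of 4 at 7 h and 4 of 4 at 21 h, against 4.83% and 3.75%. At 0.5, 2, 7 and 21 h 0 of 4 were 2-fold lower, against 1.01%, 1.1%, 3.16% and 1.45% of all genes. The median change of the 4 genes was 0.79, 2.76, 2.93 and 2.26 in order of time, and the median of all genes 0.08, 0.07, -0.00029 and 0.02. These comparisons share the 0 h array, so a low reading of that array would enter all of them. The 4 genes were chosen with earlier results of these data known, so the shares of all genes describe their standing and test nothing.

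**Figure D2:**
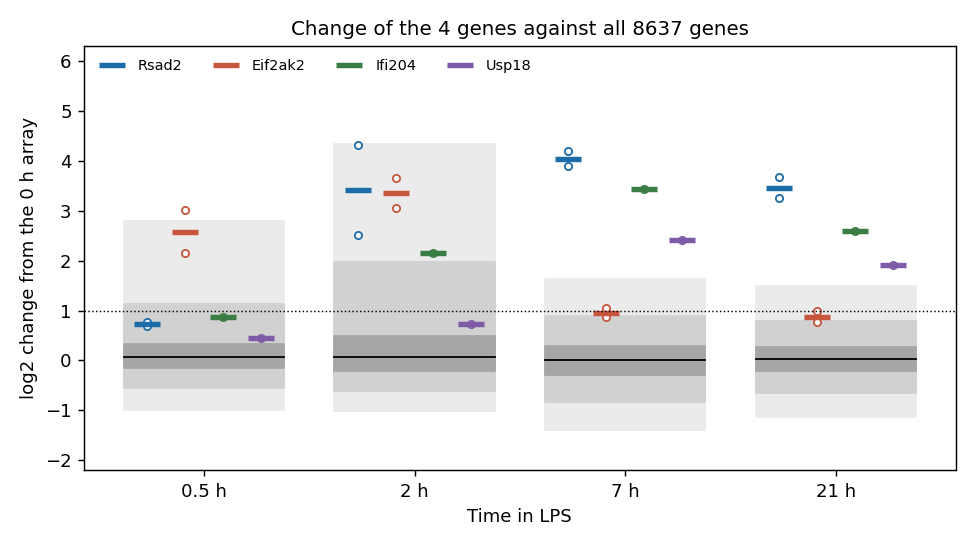
Log2 change from the 0 h array (vertical axis) at each time in LPS (horizontal axis); thick bars are gene means, small circles single probes, and grey bands hold the inner 50%, 90% and 98% of all genes with the median as a line. At 7 h and 21 h Rsad2, Ifi204 and Usp18 lie above the 98% band and Eif2ak2 just under the dotted line of a 2-fold change, whereas at 2 h the bands themselves reach high; under quantile normalization the values of Rsad2, Ifi204 and Usp18 at 0.5 h and 2 h lie below 0.

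Within the ranking of 8637 changes from highest to lowest, Rsad2 was number 4 at 7 h and number 8 at 21 h, Ifi204 number 7 and number 14, and Usp18 number 25 and number 38. Eif2ak2 stood at 376 and 345. As the genes were chosen with earlier results of these data known, these places are a description and no test. At 2 h the order was different, with Rsad2 at 162, Eif2ak2 at 169, Ifi204 at 371 and Usp18 at 1525, and at 0.5 h Eif2ak2 was at 103 and the other members were at 625 or lower in the list. Rsad2 and Ifi204 were at least 2-fold above 0 h at 2, 7 and 21 h alike, as were 0.973% of all genes, and with Usp18 they were so at both 7 h and 21 h, as were 1.75%. From 7 h to 21 h the differences of Rsad2, Ifi204 and Usp18 were -0.58, -0.84 and -0.50, and so 0 of the 3 were 2-fold lower, against 1.12% of all genes. With the 0.5 h array as the baseline, Rsad2, Ifi204 and Usp18 lay 10.0-fold, 5.95-fold and 3.90-fold higher at 7 h, where the background of 2-fold higher genes was 2.72%. At 21 h they lay 6.68-fold, 3.33-fold and 2.75-fold above it, with a background of 2.26%.

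The early course of Eif2ak2, at least 2-fold higher at 0.5 h and 2 h and under 2-fold higher at 7 h and 21 h, was shared by 382 genes, 4.42% of all. Outside affected runs 35 of 5996 genes (0.584%, lowered by the definition of the runs) had this course, and Eif2ak2 by its probe 11451 was among them. The part of the runs in its early values was not tested.

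Beside the other probes of its own run, each probe stood as follows. The run of Ifi204 (92 probes measured on all arrays) had median changes of -0.02, 0.05, 0.14 and 0.11, and no other probe in it lay higher than Ifi204 at 0.5, 7 or 21 h and 1 did at 2 h. In the run of Eif2ak2 probe 11451 (86 probes) the medians were 0.07, -0.22, -0.01 and 0.09, and 0, 1, 5 and 3 probes lay higher. The unaffected run of Usp18 (88 probes) had 17 and 10 probes higher at 0.5 h and 2 h, but 1 at 7 h and 1 at 21 h. Probe 12355 of Rsad2 and probe 12329 of Eif2ak2 share an affected run of 88 probes, whose median change was 0.39, 0.87, 0.08 and 0.44. In that run 44.3% of probes were at least 2-fold higher at 2 h, with 6 above Rsad2 and 9 above Eif2ak2. Rsad2 was exceeded there by 23 probes at 0.5 h, 1 at 7 h and 1 at 21 h. Eif2ak2 was exceeded there by 6 probes at 0.5 h, 14 at 7 h and 26 at 21 h. Probe 14280 of Rsad2 lies in an affected run of 90 probes with a median of 0.06 at 2 h, and none of them lay higher at 2, 7 or 21 h. With each run centred on its own median, the changes of Rsad2 were 0.40, 2.96, 3.88 and 3.24, and those of Eif2ak2 2.34, 3.16, 1.03 and 0.80. Those of Ifi204 were then 0.92, 2.10, 3.51 and 2.58, and those of Usp18 0.30, 0.69, 2.11 and 1.75.

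**Figure D3:**
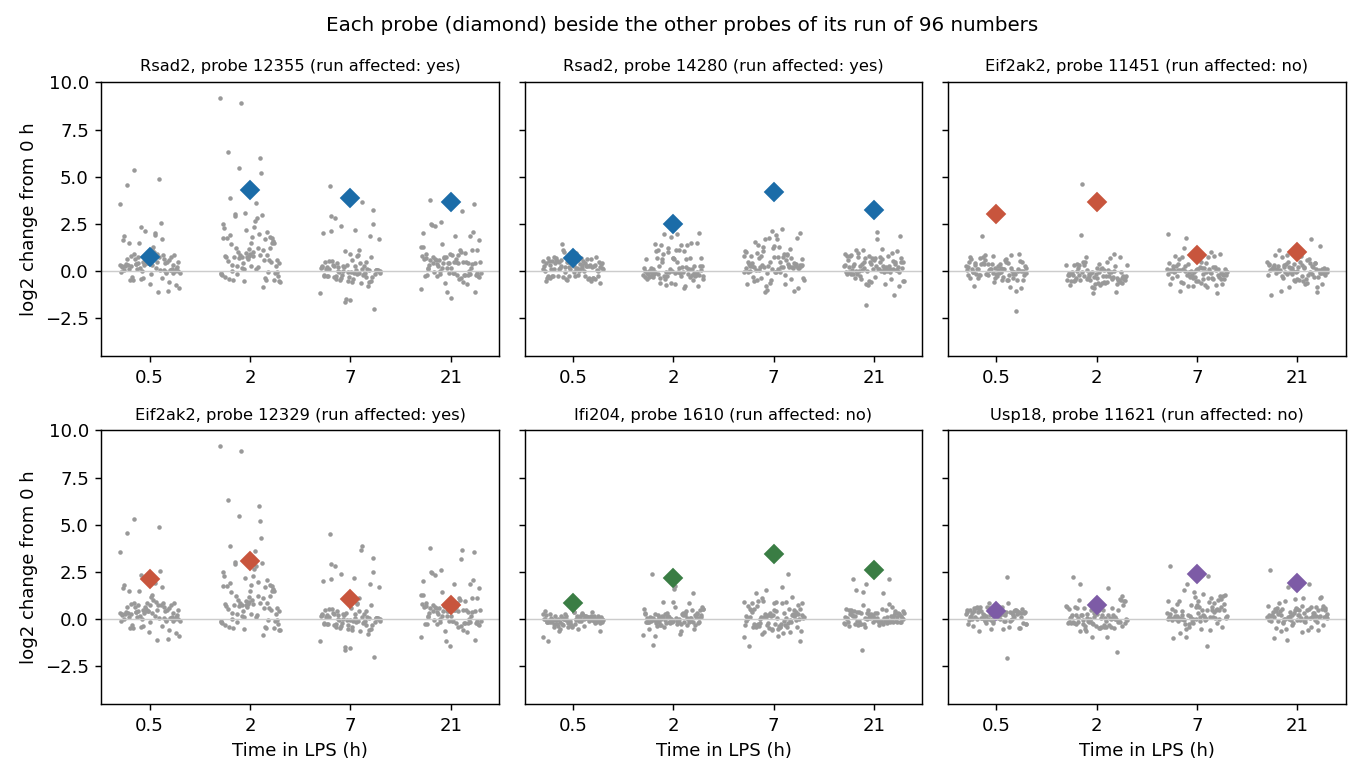
Log2 change from 0 h (vertical axis) at each time in LPS (horizontal axis) for each of the 6 probes (diamonds) and for the other probes of the same run of 96 consecutive numbers (grey points, spread sideways by probe number). Probe 11451 of Eif2ak2 and the probe of Ifi204 stand above nearly all points of their unaffected runs at 2 h, whereas the run shared by probes 12355 and 12329 holds many high points at 0.5 h and 2 h; quantile normalization turns the values of Rsad2, Ifi204 and Usp18 below 0 at these times.

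Likeness of course was measured as the root mean square difference between the 4 log2 changes of a member and those of every other gene, over the 5 arrays. The genes closest to Rsad2 were Cxcl10, which encodes an interferon-induced chemokine (0.77), Ifi204 (0.82) and Ifit1, an interferon-induced RNA-binding protein gene (0.86). Closest to Ifi204 were Il1rn, encoding the interleukin 1 receptor antagonist (0.44), the acute-phase gene Saa3 (0.48) and the nucleoside transporter gene Slc28a2 (0.54). For Usp18 they were Exosc4, encoding an exosome subunit (0.28), Insig2, a regulator of sterol synthesis (0.31), and Mxd1, an antagonist of Myc (0.33). The nearest genes to Eif2ak2 were Zfp688 (0.25), Chmp4c (0.27) and Cmtm8 (0.34). Of these neighbours, Cxcl10, Ifit1, Il1rn, Saa3, Slc28a2, Insig2, Zfp688 and Cmtm8 were measured only in affected runs, Mxd1 by 1 of its 2 probes and Chmp4c by 1 of its 3 probes there, and Ifi204 and Exosc4 only outside. Among the members themselves, Ifi204 was second in the list of Rsad2, Usp18 at place 35 and Eif2ak2 at place 156. In the list of Usp18, Ifi204 was at place 263, Rsad2 at 5899 and Eif2ak2 at 7157. This measure counts the size of the changes as well as their shape, so a place far down does not show a different shape. In the gene means, Rsad2, Ifi204 and Usp18 all had their highest level at 7 h. With 1 array per time, these distances describe the 5 arrays and no shared control.

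Upstream, the signalling route to interferon response was only partly measured, with 9 of 22 listed genes. At 7 h 2 of the 9 were at least 2-fold higher and 0 lower (4.08% of all genes higher), with a list median of 0.66. These were Irf7, the factor that amplifies interferon production, with changes of 0.30, 1.35, 2.24 and 1.74 in order of time, and Stat2, a subunit of the interferon-activated factor, with -0.14, 0.04, 2.17 and 1.27. Both share with Usp18 a higher value at 7 h than at 2 h. Irf9, the DNA-binding partner of Stat2, had 0.05, 0.91, 0.96 and 0.76. Irf1, an interferon regulatory factor, was 1.03, 1.71, 0.84 and 0.43, and so highest early, as was Eif2ak2. Tbk1, the kinase that activates IRF3, had a change of 0.66 at 7 h, the receptor subunit gene Ifnar2 0.58, the receptor kinase gene Jak1 0.39, Irf3 -0.25 and the inhibitor gene Socs1 -0.64. The probes of Irf7, Irf9, Irf1, Tbk1 and Socs1 lie outside affected runs, those of Stat2 and Irf3 inside.

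Of 78 other interferon-response genes listed, 29 were measured. At 0.5, 2, 7 and 21 h 4, 8, 12 and 8 of them were at least 2-fold higher and 0 lower, and their median change was 0.21, 0.21, 0.58 and 0.61. Of all genes, 5.95%, 12.4%, 4.08% and 3.05% were at least 2-fold higher and 1.01%, 1.1%, 3.16% and 1.45% lower. Outside affected runs 1, 3, 6 and 2 of 20 listed genes were at least 2-fold higher, where the shares of all such genes were 1.28%, 4.22%, 4.52% and 2.55%. Under quantile normalization 0 of the 29 were higher and 9 lower at 0.5 h, and 0 higher and 10 lower at 2 h, while 12 were higher and 1 lower at 7 h. Of all 8637 genes, 240 were then higher and 298 lower at 0.5 h, 430 and 395 at 2 h, and 417 and 516 at 7 h. The genes with the largest change at 7 h were Ifit1 (4.07, SD over probes 0.60) and Ifit2 (2.93), which bind viral RNA, Epsti1 (2.84) and the immunity-related GTPase gene Igtp (2.42, SD 0.22). Rsad2 and Ifi204 thus stood at places 2 and 3 at 7 h among the 33 measured genes of the list, after Ifit1. Usp18, at 2.42, was level with Igtp. Eif2ak2 was at place 3 at 2 h and at place 16 at 7 h.

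**Figure D4:**
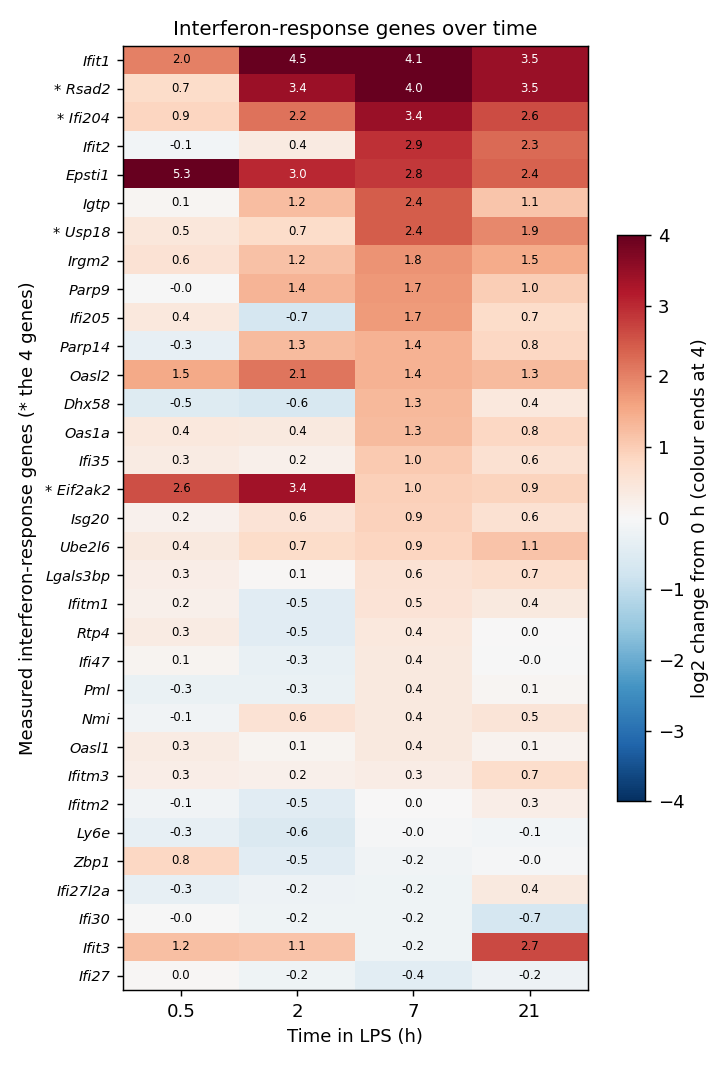
Log2 change from 0 h (colour, with the value printed in each cell) of the 33 measured interferon-response genes, 1 row per gene in order of the 7 h value, at each time in LPS (columns). Rsad2, Ifi204 and Usp18 (starred) are near the top at 7 h and 21 h, while Eif2ak2 has its high values in the 0.5 h and 2 h columns; in those columns quantile normalization puts 9 and 10 of the other 29 genes at least 2-fold lower. Of all 8637 genes, 298 and 395 were then at least 2-fold lower.

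Genes that work with single members were measured in small numbers. Of the ISG15 system on which Usp18 acts, 2 of 6 listed genes were measured, Usp18 itself and Ube2l6, the conjugating enzyme of ISG15. Ube2l6 had changes of 0.40, 0.73, 0.86 and 1.15, and so a smaller late change than Usp18 on a probe in an affected run. Of the HIN-200 family 2 of 9 listed genes were measured. Beside Ifi204 this was Ifi205, whose changes of 0.41, -0.66, 1.69 and 0.72, on a probe outside affected runs, were highest at 7 h too.

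In the eIF2 pathway, in which PKR acts, 14 of 19 listed genes were measured, and 3 of them were at least 2-fold higher at 0.5 h (5.95% of all genes) and 3 at 2 h (12.4%). Besides Eif2ak2 these were Ppp1r15a, the phosphatase subunit that reverses eIF2 phosphorylation (2.14, 1.31, 0.76 and 0.41), on a probe outside affected runs, and Eif2s3x, a subunit of eIF2 (3.27, 2.06, -1.79 and -0.55), on a probe inside. The kinase gene Eif2ak3, encoding the endoplasmic reticulum stress kinase PERK, had 0.19, -0.54, 0.02 and -0.12 on 2 probes outside affected runs. The factor gene Atf4, translated when eIF2 is phosphorylated, had -0.08, 0.15, 0.02 and 0.31, and its target Ddit3 had 0.07, -0.16, -0.33 and -0.25. Prkra, which encodes an activator of PKR, had 0.72 at 2 h and -0.41 at 7 h, and Dnajc3, which encodes an inhibitor of PKR, had -0.31 and -0.12. These values are below the pooled SD of their times.

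Of 7 listed genes whose products are tied to viperin, 5 were measured and 0 were 2-fold higher or lower at any time. Of all genes, 5.95%, 12.4%, 4.08% and 3.05% were higher and 1.01%, 1.1%, 3.16% and 1.45% lower in order of time. A count of 0 among 5 genes is thus near the background. Fdps, a sterol pathway enzyme that viperin binds, had 0.37, -0.01, 0.87 and -0.38. The signalling genes Irak1 and Traf6 had -0.47 and -0.06 at 7 h, the mitochondrial enzyme gene Hadhb -0.16, and Ciao1, which serves iron-sulfur protein assembly, -0.22.

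Markers of other cell types were read on the same arrays. Of 5 B cell markers 3 were measured. Cd79b, a subunit of the B cell receptor, was highest at 7 h, as were Ifi204 and Usp18. It had levels of -2.08, -0.95, -0.03, 0.32 and -0.29 and changes of 1.13, 2.05, 2.41 and 1.79. At 2 h its change was near the 2.16 of Ifi204 and above the 0.73 of Usp18. Cd79a, the partner subunit, had changes of 1.23, 0.70, 0.25 and 0.46, and Ighm, the heavy chain gene, 0.23, -0.26, -0.38 and -0.27. Of the markers of neutrophils (6 of 8 measured), T and NK cells (2 of 7) and dendritic cells (2 of 5), 0 were at least 2-fold higher at any time. Of all genes, 5.95%, 12.4%, 4.08% and 3.05% were at least 2-fold higher in order of time, so with so few markers the count of 0 says little. At 21 h 2 of the 6 neutrophil markers were at least 2-fold lower, the granule genes Ngp (-1.62, SD over probes 1.08) and Mpo (-1.25), and the median of these markers was -0.51, where 1.45% of all genes were 2-fold lower. The part of other cells in the changes of the 4 genes was not tested.

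**Figure D5:**
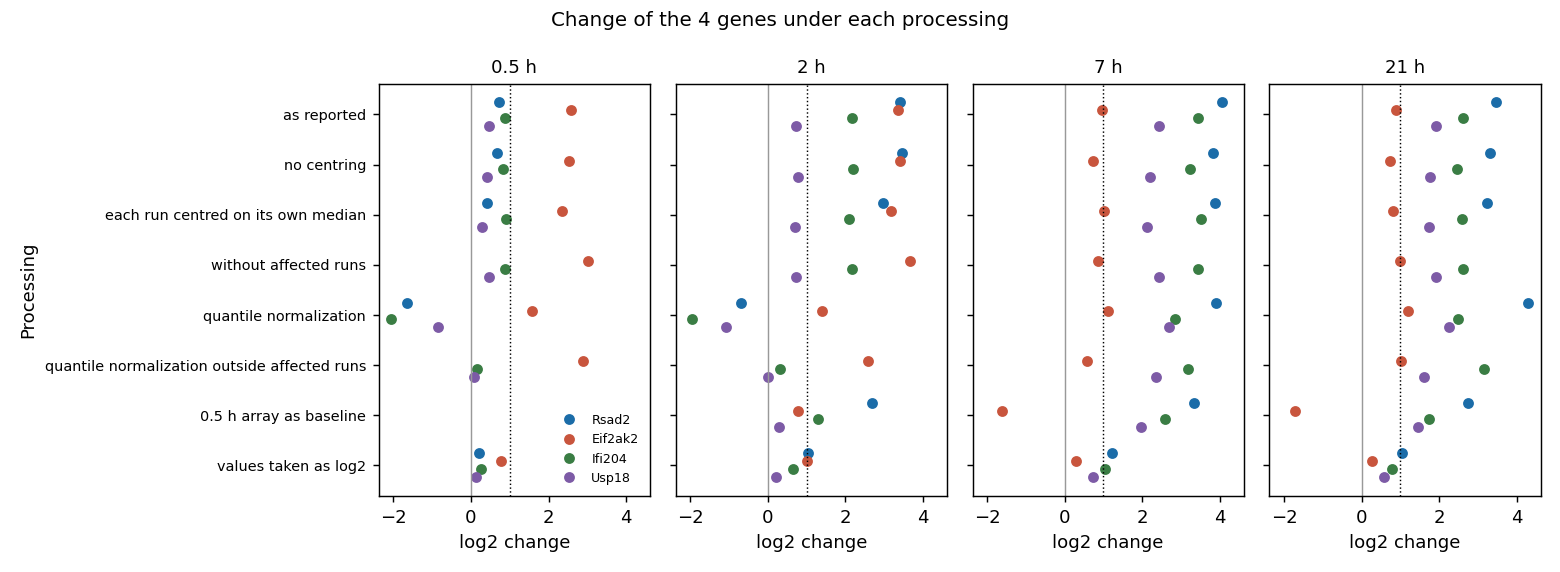
Log2 change of each of the 4 genes (colours, horizontal axis) at 0.5, 2, 7 and 21 h (panels) under each way of processing the values (vertical axis); the grey line is no change and the dotted line a 2-fold change. At 7 h and 21 h Rsad2, Ifi204 and Usp18 are above 0 in every row where they have a point. Rsad2 has no point in the rows that use only probes outside affected runs. At 0.5 h and 2 h the same genes fall below 0 under quantile normalization over all probes. Eif2ak2 falls below 0 at 7 h and 21 h where the 0.5 h array is the baseline.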

How the data were processed

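The authors deposited 1 log10 ratio per probe and array of the 2 channels, macrophage and embryo RNA. RNA was labelled by the indirect amino-allyl method, per the labels' protocols. The scanner, the background correction and the normalization are not given in the sources used here, and the log base, read as log10, was inferred from the range of the values. No intensities were used, so signal over background is unknown for every probe. Precision is limited by having 1 array per time.

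Genes came from the platform annotation of 2008. Of 19828 probes, 14759 had 1 symbol, 170 several and 4899 were unnamed. Entrez identifiers matched 14628 to GRCm38.p6 symbols. Values were multiplied by 3.32 and centred on the array median over 18296 probes measured on all 5 arrays, and 13782 named probes were averaged per gene (pandas 2.3.3, Python 3.11.15). Genes at or beyond 2-fold were counted, with no test. Steps were tested on simulated data. Named genes are the members, the 3 genes nearest to each in course, the members of small lists and the 4 of the long list with the largest change at 7 h. Members, lists and affected runs were chosen with earlier results of these data known. Alternatives were the log base, centring, quantile normalization, affected runs, baseline and probe averaging.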

Additional observations from a re-analysis of the deposited data

How the results depend on the processing

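Each count and median of the members, and each count of the other 29 interferon-response genes, stayed within its margin (1.5 times for counts, the pooled SD for medians) without centring, with each run centred on its own median, with medians over probes, and with probes measured on the 2 arrays compared. Quantile normalization over all probes gave a members' median of -1.24 at 0.5 h and -0.88 at 2 h, turned Rsad2 to -0.70 and Ifi204 to -1.95 at 2 h, left 1 member at least 2-fold higher at 2 h, and 0 other interferon-response genes at 0.5 h and 0 at 2 h. Of all genes, 2.78% and 4.98% were then at least 2-fold higher at 0.5 h and 2 h. Over probes outside affected runs alone, an alternative chosen after seeing the data, quantile normalization gave medians over 3 members of 0.31, 2.35 and 1.62 at 2, 7 and 21 h, with 1 member at least 2-fold higher at 2 h, and 0, 0, 3 and 1 of 20 other genes in order of time. The shares of all such genes were 1.15%, 3.57%, 3.72% and 2.38%. Without affected runs, which removes both probes of Rsad2 and 9 of the other genes, the counts of the other genes were 1, 3, 6 and 2. The shares of all genes were then 1.28%, 4.22%, 4.52% and 2.55%. Against the 0.5 h array the members' medians were 1.03, 2.27 and 1.60 at 2, 7 and 21 h. At 2 h 4 other genes were then at least 2-fold higher, against 8.04% of all genes. With the values taken as log2, the members' medians at 2, 7 and 21 h were 0.83, 0.88 and 0.68, with 0 members at least 2-fold higher at 0.5 h and 1 at 21 h, and 1 other gene at each of the 4 times. Of all genes, 0.648%, 2.00%, 0.0810% and 0.0926% were then at least 2-fold higher in order of time. The causes were not tested. No paired analysis was possible because each time has 1 array, and for the same reason no replicate could be left out. Signal over background is unknown, so a dim probe cannot be told from a bright one.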

Other observations

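The probe number next after each Eif2ak2 probe was also high at 2 h. Probe 11452, unnamed here, had log2 changes of 1.84, 4.63, -0.62 and -0.33 in order of time, beside 3.02, 3.66, 0.87 and 0.99 for Eif2ak2 on probe 11451. Probe 12330, of the purine synthesis gene Gart, had 0.66, 2.18, -1.45 and -1.13, beside 2.14, 3.06, 1.05 and 0.76 on probe 12329. The numbers just before the Eif2ak2 probes, probe 11450 of Ppp1r14b and probe 12328 of Zcchc24, had -0.01 and 0.33 at 0.5 h. At 2 h probe 12328 had -0.49 and probe 11450 had no value. Probe 12354, just before probe 12355 of Rsad2, is an Ifit1 probe with 2.58, 5.18, 3.65 and 3.17, and the number after Usp18, probe 11622, is the prothrombinase gene Fgl2 with -0.06, 0.55, 2.82 and 2.63. The neighbours of Ifi204, Ylpm1 and Gorasp2, stayed between -0.66 and 0.04. Whether probe numbers follow positions on the array is unknown here.

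The courses of the other interferon-response genes varied, and a pair of them, chosen after their values were seen, is given here. Ifit3, on a probe outside affected runs, had changes of 1.22, 1.14, -0.18 and 2.65. Epsti1, on a probe inside, had 5.33, 3.03, 2.84 and 2.37 and so was highest at 0.5 h.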
